A study of Rattus norvegicus with 23 samples.

Results

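The genes described here are 34 mitosis and proliferation genes, found by symbol in the deposited count table of rat femora. The table holds 30562 genes, and each of the 34 symbols matched 1 gene. The study sequenced polyadenylated RNA from femora of female Wistar rats in 23 bulk libraries. MetOP is the labels' name for a metabolic osteoporosis model. Its rats were fed a high-fat diet and given L-NAME, which blocks nitric oxide synthases. The healthy control group (n = 4) had a standard diet and saline, and its titles carry "oLN" where all others carry "LN". The other groups were all MetOP rats. They received saline (n = 5), semaglutide, a GLP-1 receptor agonist (n = 5), the gut peptide PYY3-36 (n = 4, called PYY), or semaglutide with PYY (n = 5, called the combination). Titles of all MetOP groups also carry the abbreviation "lfd", which is not explained. The treatment labels of the 4 PYY libraries read PYY3-36, PYY3-37, PYY3-38 and PYY3-39 under otherwise identical titles, so they were taken as 1 group by title. All libraries share 1 batch label. Doses, times and ages are not given in the labels used here, and no label says that each library is an animal of its own. The p-values therefore cover only the spread among these libraries, which may be technical.

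Dividing cells switch these genes on in order. Cyclin E and the enzymes of nucleotide supply act as DNA replication begins, cyclin A, cyclin B and Cdk1 drive entry into mitosis, the spindle checkpoint holds chromosomes until they are attached, and the chromosomal passenger proteins and the central spindle complete division. In a long bone most of the cycling cells are blood cell precursors of the marrow, above all of the red cell and granulocyte lines, with smaller numbers of growth plate chondrocytes and osteoblast precursors. Many of these genes are known to be held down in resting cells by the DREAM complex, which reads a short element called the CHR (TTTGAA) in their promoters, and to be activated through CCAAT boxes bound by NF-Y.

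The promoters of 29 of the 34 members are listed by RefSeq on GRCr8, and the 250 bases before each start site were searched on both strands. TTTGAA was found in 13 of the 29 (44.8%), against 16.2% of all 33365 listed rat promoters. CCAAT was found in 20 (69%), against 34% of all, and 2 or more copies of it in 13 (44.8%, against 9.41%). Both TTTGAA and 2 or more copies of CCAAT were present in 9 members (31%), against 1.56% of all promoters. For the members 1 promoter per gene was taken. The share of all counts every distinct listed promoter, whether or not its gene was tested here. The letters TTTCCCGC or TTTGGCGC, forms of the E2F site, were found in 1 member (3.45%, against 1.21%). Other forms were not searched. The Cdk1 promoter below holds TTTCGCGC, a further form that is not in this count, so the share with any E2F site was not measured. These are matches of letters, with no measurement of binding behind them. The 5 promoters below hold both elements and belong to the members with the highest mean FPKM among those 9. Each is printed 5′ to 3′ along the gene's strand, with TTTGAA and CCAAT, or their complements TTCAAA and ATTGG, in capitals.
Cdk1, chr20:19265043-19265292, plus strand: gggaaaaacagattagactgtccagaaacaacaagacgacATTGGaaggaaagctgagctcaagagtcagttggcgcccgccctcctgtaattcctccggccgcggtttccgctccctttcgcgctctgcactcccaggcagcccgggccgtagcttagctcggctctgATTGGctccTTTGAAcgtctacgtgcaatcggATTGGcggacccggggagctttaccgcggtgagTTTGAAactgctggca
Mki67, chr1:199952594-199952843, minus strand: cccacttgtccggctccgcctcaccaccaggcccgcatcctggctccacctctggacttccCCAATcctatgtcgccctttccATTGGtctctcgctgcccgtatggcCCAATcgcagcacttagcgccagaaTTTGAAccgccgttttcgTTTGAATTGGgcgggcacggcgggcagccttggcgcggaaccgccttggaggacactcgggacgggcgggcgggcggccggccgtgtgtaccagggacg
Top2a, chr10:84473094-84473343, minus strand: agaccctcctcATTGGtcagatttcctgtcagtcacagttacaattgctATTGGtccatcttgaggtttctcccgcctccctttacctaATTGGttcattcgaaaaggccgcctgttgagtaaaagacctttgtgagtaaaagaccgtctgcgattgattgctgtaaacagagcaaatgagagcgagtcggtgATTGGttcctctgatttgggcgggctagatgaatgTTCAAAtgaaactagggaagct
Prc1, chr1:143659231-143659480, plus strand: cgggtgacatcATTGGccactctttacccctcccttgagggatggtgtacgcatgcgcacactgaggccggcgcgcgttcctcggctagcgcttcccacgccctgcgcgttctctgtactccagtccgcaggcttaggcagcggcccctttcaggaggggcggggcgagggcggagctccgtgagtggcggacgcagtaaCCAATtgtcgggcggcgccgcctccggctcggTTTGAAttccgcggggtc
Ccnb2, chr8:79981659-79981908, minus strand: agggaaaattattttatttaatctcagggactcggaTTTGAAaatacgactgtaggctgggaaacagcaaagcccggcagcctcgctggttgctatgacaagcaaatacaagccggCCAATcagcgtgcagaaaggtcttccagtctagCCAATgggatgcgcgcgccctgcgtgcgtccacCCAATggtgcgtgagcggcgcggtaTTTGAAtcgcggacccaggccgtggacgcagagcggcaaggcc
In Mki67 1 TTTGAA and 1 ATTGG overlap. Neither element was found in the promoters of Tyms, Mad2l1, Ccne1, Aurka, Bub1, Ncaph, Bub1b or Kif2c, which says only that these letters are not in this window.

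Library totals ran from 19.2 to 40.7 M counts, of which 46.1 to 83.9% fell on mitochondrially encoded genes. The remaining counts ran from 4.28 M in A229 to 16.1 M in A220. Levels below are CPM (counts per M counts of the library) after scaling by TMM factors, which correct for differences in RNA composition. FPKM, which also divides by transcript length, is used to compare one gene with another. Differences are log2 fold changes with their standard error (SE) from edgeR's quasi-likelihood fit of all 23 libraries, and a call is an adjusted p (Benjamini-Hochberg over the 15271 genes tested) under 0.05. All 34 members passed the filter on low counts. Library values are listed by library number within a group. These are A387, A389, A390 and A392 for healthy control, A224, A226, A229, A232 and A265 for MetOP saline, A238, A240, A241, A242 and A243 for semaglutide, A215, A216, A219 and A220 for PYY, and A248, A251, A253, A318 and A320 for the combination. As a check of the tissue, none of the 7 osteoblast markers was at 0 in any of the groups. Skeletal muscle markers were abundant too, with summed levels from 1449 to 58110 CPM per library.

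The members were low to moderate in level. By mean FPKM over all libraries, Pcna, the sliding clamp of DNA polymerase, stood first at 20.4, with libraries from 6.96 to 36.8. Rrm1, the large subunit of ribonucleotide reductase, had 8.37, the spindle assembly factor Tpx2 had 7.64, Cdk1, the kinase that drives mitosis, had 6.88, and the proliferation marker Mki67 had 6.28. At the other end, Cdc25c, the phosphatase that activates Cdk1, had a mean of 0.246 FPKM and Anln, the cytokinesis protein anillin, 0.644. Cdc25c had no count in 10 of the 23 libraries and at most 88 counts in any, so its fold changes carry the largest errors of the set. The remaining 27 members lay between 0.902 (Kif2c) and 5.67 (Ccna2) FPKM.

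**Figure D1:**
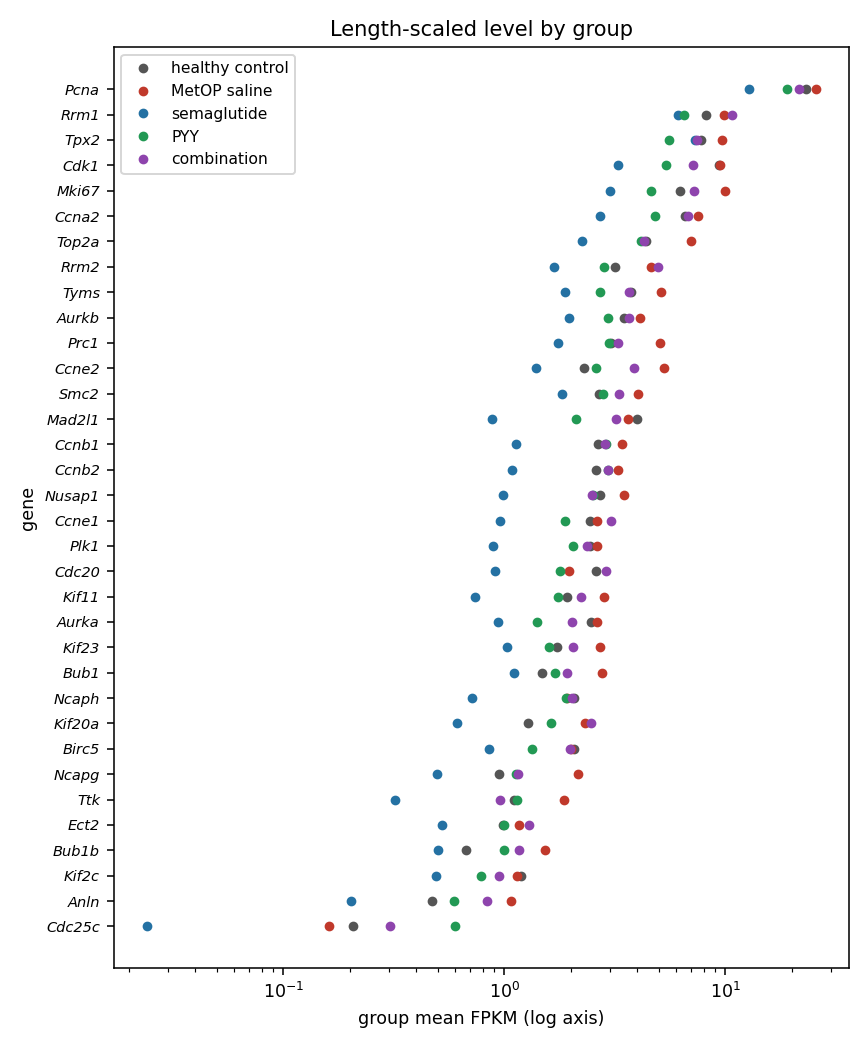
Mean FPKM (log axis) of each of the 34 members in each of the 5 groups, with members ordered by mean FPKM over all libraries. Pcna was the highest member on average (20.4) and Cdc25c the lowest (0.246), and for most members the semaglutide mean is the lowest of the 5 groups.

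The semaglutide group had the lowest mean CPM for 33 of the 34 members, the exception being Tpx2, whose lowest mean was in the PYY group. MetOP saline had the highest mean for 22 members, the combination for 6, healthy control for 5 and PYY for 1. The members' level, taken as the mean of their log2 CPM in a library, was 2.85 ± 0.27 in healthy control (SD, n = 4), 3.02 ± 0.89 in MetOP saline (n = 5), 1.45 ± 0.99 with semaglutide (n = 5), 2.55 ± 0.86 with PYY (n = 4) and 2.42 ± 1.54 with the combination (n = 5). Every pair of groups overlapped in this level. Semaglutide library A241 (2.95) lay inside the healthy range of 2.48 to 3.13, and the other 4 semaglutide libraries lay below it. Libraries of the other MetOP groups lay below that range too. These were A226 and A265 of saline, A215 and A220 of PYY, and A248, A251 and A318 of the combination. The healthy libraries lay close together, and the combination libraries were the most scattered, from 0.30 in A251 to 4.06 in A320.

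**Figure D2:**
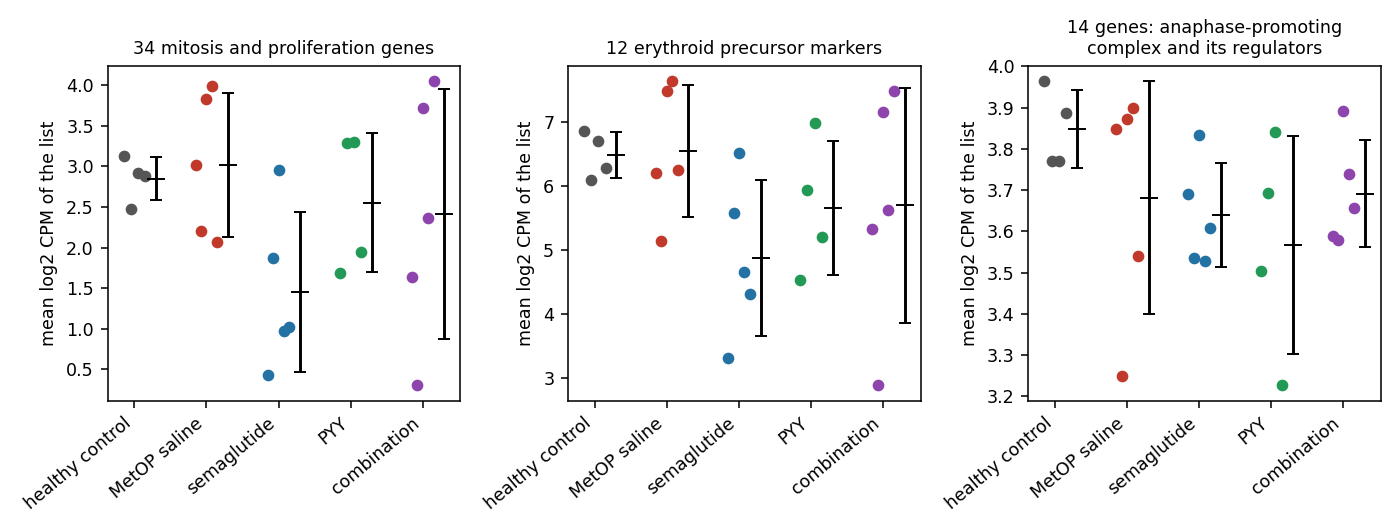
Level by library (mean log2 CPM, points) with group mean ± SD for the 34 members, 12 erythroid precursor markers and 14 genes of the anaphase-promoting complex and its regulators, with a separate y range in each panel. The first 2 lists were lower in 4 of the 5 semaglutide libraries than in any healthy control library. The same held for combination libraries A248, A251 and A318, PYY libraries A215 and A220 and MetOP saline library A226. The list of the anaphase-promoting complex stayed between 3.23 and 3.97 in all 23 libraries.

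Most members were high or low in the same libraries. Libraries A232 and A320 each held 32 of the 34 members among their 5 highest values, and A229 and A253 each held 28. At the low end, A251 held 30 members among their 5 lowest values, A238 29, A243 28 and A242 26. Of these, A229 and A232 are MetOP saline, A251, A253 and A320 are combination, and A238, A242 and A243 are semaglutide libraries. The highest single value of a member lay in A229 or A320 for 10 members each and in A232 for 8. Of the high libraries, A229 and A253 had 83.9 and 82.6% mitochondrial counts, and A232 and A320 had 69.8 and 70.1%.

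**Figure D3:**
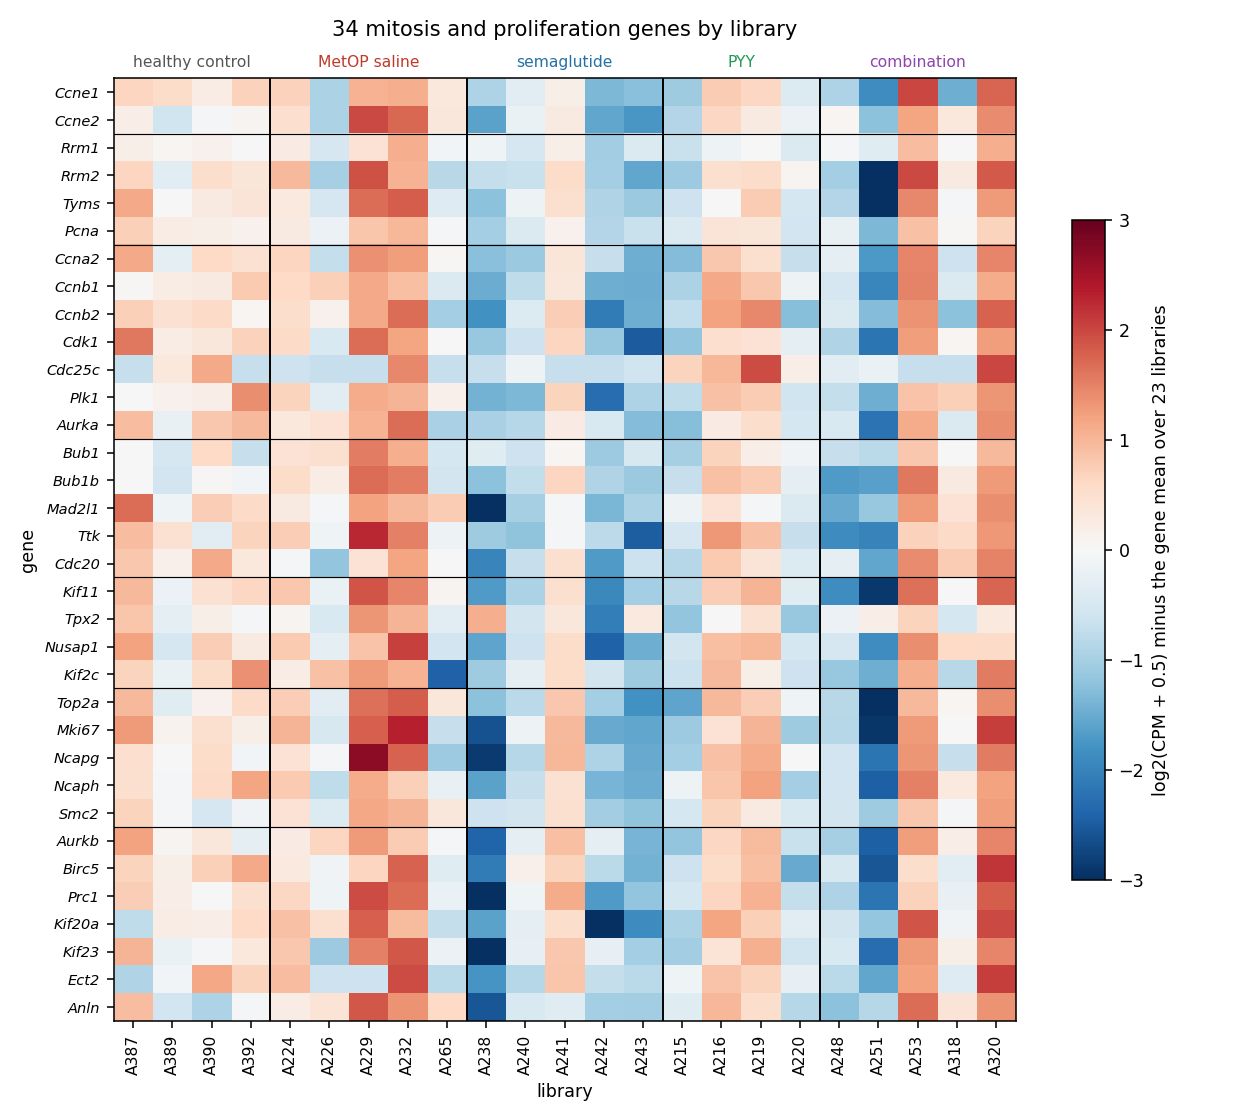
Each row is a member and each column a library, coloured by log2(CPM + 0.5) minus the gene's mean over the 23 libraries, with libraries ordered by group. Columns tend to share 1 colour, with A251, A238, A242 and A243 low and A229, A232, A253 and A320 high for most members.

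The central comparison was semaglutide against MetOP saline, which asks what semaglutide did to the bone of the disease model. All 34 members had a log2 fold change below 0, with a median of -1.47 and a range from -2.73 (Cdc25c) to -0.37 (Tpx2), against 52.4% of all genes tested below 0 and a median of -0.04 over all genes. None of the 34 was called (background 0% of 15271 genes, by edgeR), and the lowest adjusted p among them was 0.389. At an unadjusted p under 0.05, 21 members were lower and none higher, against 7.24% of all genes lower and 4.18% higher at that level. Since most members were high or low in the same libraries, their counts here and in the other comparisons are not 34 independent observations. All 5 semaglutide libraries lay below all 5 MetOP saline libraries for 2 members, Mad2l1 and Anln, as they did for 1.75% of all genes. DESeq2 and limma voom called none of the members either. The size of the median depended on single libraries, from -2.11 without semaglutide library A241 to -1.23 without MetOP saline library A232. In bulk tissue, fewer cells of a type and less RNA per cell cannot be told apart.

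**Figure D4:**
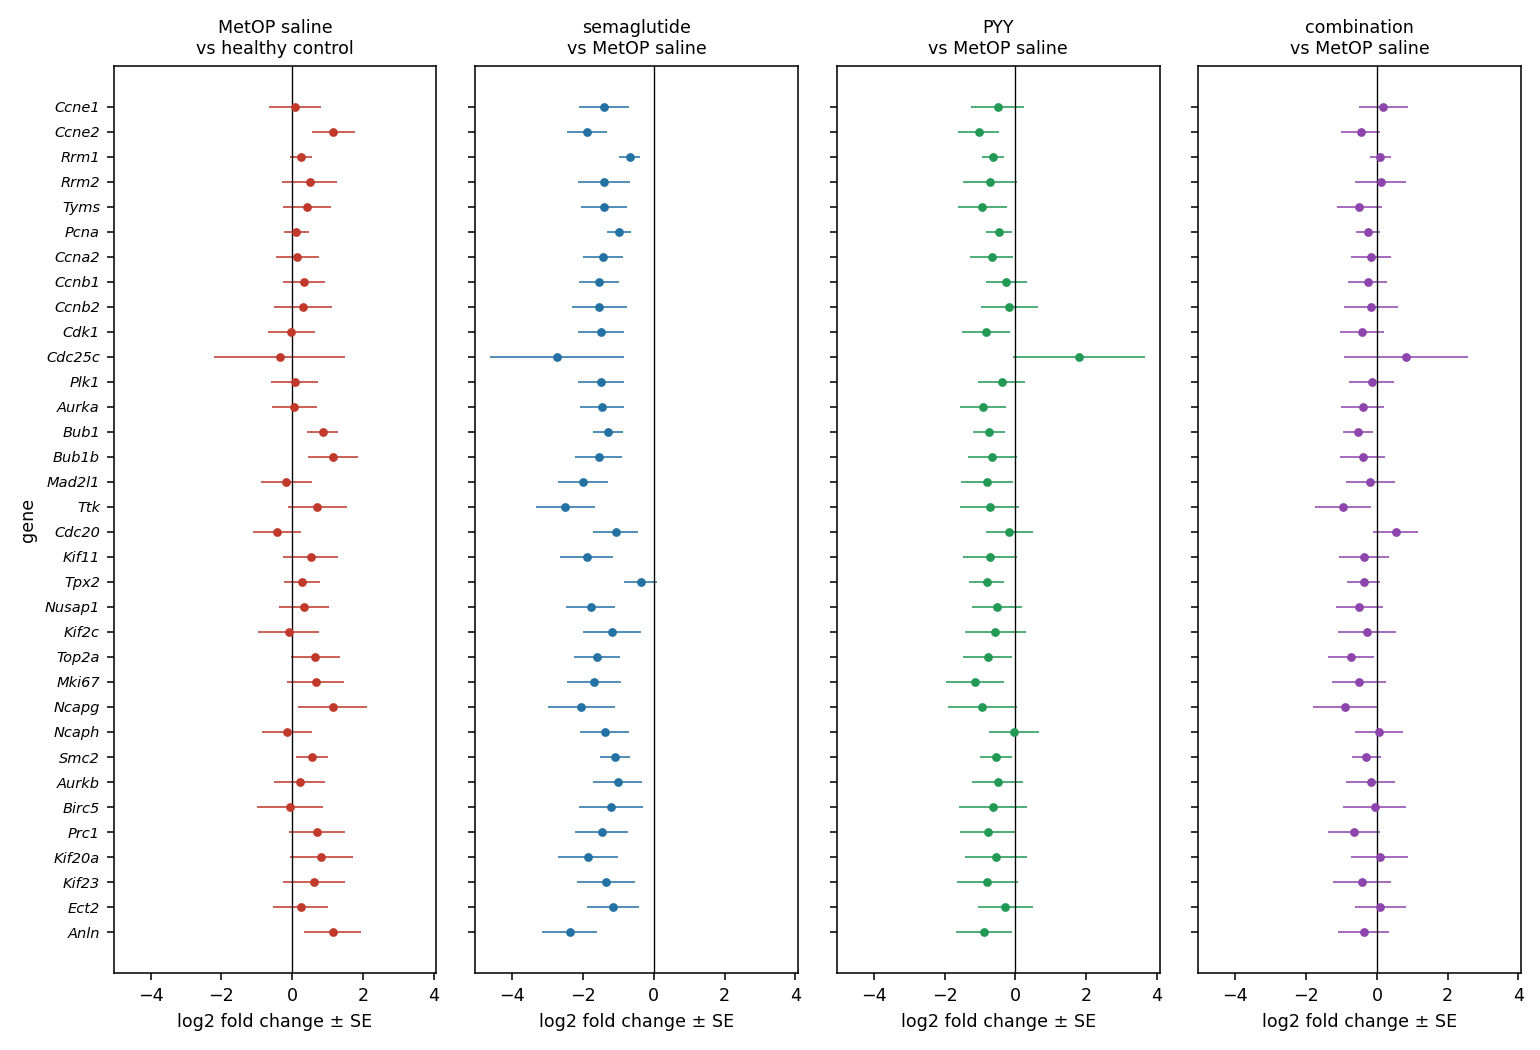
Log2 fold change ± SE of each of the 34 members in 4 comparisons, from edgeR's fit of all libraries. The comparisons are MetOP saline against healthy control, and semaglutide, PYY and the combination each against MetOP saline. All 34 points lie below 0 for semaglutide against MetOP saline, and 26 of the 34 for the combination against MetOP saline. No member was called in any of the comparisons.

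Beside the members, all 12 erythroid precursor markers were lower with semaglutide, with a median log2 fold change of -1.55 and none called. Their summed level ran from 1555 to 15890 CPM in semaglutide, 5860 to 32960 in MetOP saline, 11940 to 24490 in healthy control, 4210 to 22180 in PYY and 1392 to 25330 CPM in the combination. No marker was at 0 in all libraries of a group, though Epor was at 0 CPM in its lowest combination library. When the erythroid level of each library entered the fit as a covariate, a choice made after seeing the data, the members' median for semaglutide against MetOP saline was -0.24 and 26 of 34 were below 0. Markers of several other cell types were lower in the same group. All 7 osteoblast markers (median -2.42, summed level 110.4 to 463.7 against 231.5 to 4433 CPM), all 6 osteoclast markers (-3.07, 10.2 to 52.7 against 40.8 to 619 CPM) and all 6 chondrocyte markers (-5.89, 3.02 to 64.4 against 23.9 to 3869 CPM) were lower with semaglutide, none of them called. All 9 macrophage markers (-1.26) and all 6 granulocyte precursor markers (-0.81) were lower as well, and 6 of 11 B cell precursor markers (-0.26). All 10 skeletal muscle markers were higher (median 0.75), and with the muscle level as covariate the members' median was -1.14, with 34 of 34 below 0. The mitochondrial share of counts was 61.4% with semaglutide and 75.3% with saline (two-sided exact permutation p = 0.0238, Benjamini-Hochberg adjusted 0.367 over the 21 comparisons of library measures). The covariate levels come from the same libraries, and the mean erythroid level itself differed between groups (4.87 with semaglutide, 6.54 with saline). The covariate fits therefore do not measure the part of these cell markers in the members' values, which was not tested.

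**Figure D5:**
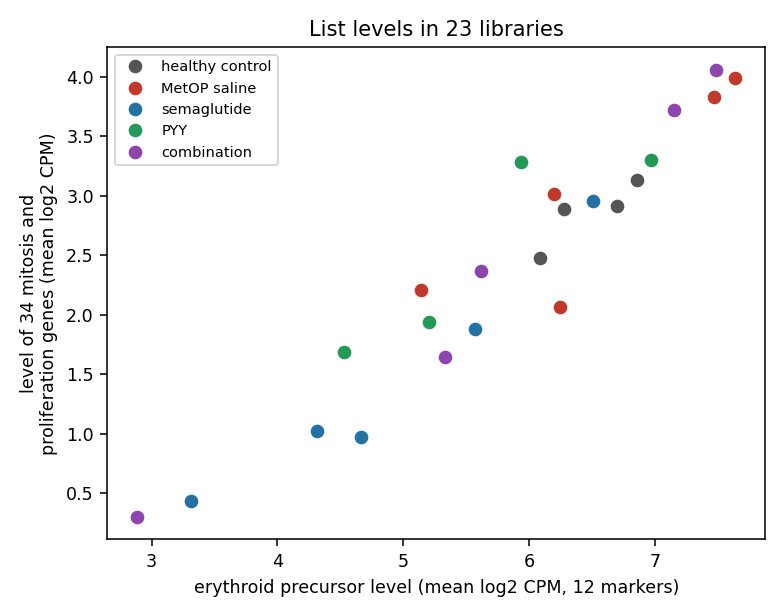
Level of the 34 members against that of 12 erythroid precursor markers (both mean log2 CPM) in the 23 libraries, coloured by group. The points run from combination library A251 (2.89 erythroid, 0.30 members) to MetOP saline library A232 (7.64, 3.99), and all groups lie along 1 band.

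Among the G1/S cyclins, which turn on Cdk2 at the start of replication, Ccne2 had the smallest unadjusted p of all members. Its CPM was 9.40, 5.16, 7.90 and 8.53 in healthy control and 11.7, 3.93, 33.5, 27.6 and 10.4 in MetOP saline. With treatment it was 2.31, 6.96, 9.86, 2.41 and 2.07 with semaglutide, 4.16, 12.8, 9.87 and 7.03 with PYY and 8.37, 3.16, 19.0, 10.1 and 22.6 with the combination. Saline libraries A229 and A232 stood far above all healthy libraries, 3 semaglutide libraries stood near 2 CPM, and the groups overlapped through saline library A226. The log2 fold change of semaglutide against saline was -1.88 ± 0.57 (unadjusted p = 0.00292, edgeR adjusted p = 0.389). Ccne2 also had the largest difference of MetOP saline from healthy control, at 1.17 ± 0.60 with an edgeR adjusted p of 0.797. The other E cyclin, Ccne1, was at -1.418 ± 0.71 with semaglutide. The median of the pair, -1.65, was the lowest of the 7 role groups, from only 2 genes.

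The 4 DNA synthesis genes, which supply nucleotides and hold the polymerase on DNA, had a median of -1.19 with semaglutide, and 3 of the 4 were at an unadjusted p under 0.05. At that level 7.24% of all genes were lower, which applies to the role groups below too. Pcna was at 46.6, 33.1, 32.0 and 31.2 CPM in healthy control and 34.3, 24.9, 51.0, 57.2 and 26.9 in MetOP saline. It was at 13.7, 20.9, 30.8, 15.2 and 17.7 CPM with semaglutide, 20.9, 37.4, 36.3 and 18.8 with PYY and 24.3, 10.8, 52.1, 28.9 and 45.4 with the combination. All 5 semaglutide libraries lay below all 4 healthy libraries, by a narrow margin for A241, while saline libraries A226 and A265 lay within the semaglutide range. Its log2 fold change against saline was -0.98 ± 0.34 (edgeR adjusted p = 0.389) and against healthy control -0.86 ± 0.36 (adjusted p = 0.536). Rrm1 had the smallest difference of the 4 (-0.68 ± 0.30), while Rrm2, its small partner subunit made in S phase, was at -1.41 ± 0.73 and Tyms, thymidylate synthase, at -1.40 ± 0.65. Rrm1 also varied least of all members across the libraries, with a coefficient of variation of 41.6%, next to 41.7% for Pcna.

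Mitotic entry is represented by 7 members, with a median of -1.50 for semaglutide against saline and 5 at an unadjusted p under 0.05. Cdk1 was at 22.97, 8.67, 9.40 and 12.2 CPM in healthy control and 11.3, 5.24, 24.4, 17.2 and 7.38 in MetOP saline. It was at 3.05, 4.61, 11.7, 3.10 and 0.894 CPM with semaglutide, 2.94, 10.6, 10.1 and 5.94 with PYY and 3.73, 1.21, 18.1, 7.72 and 18.2 with the combination. Semaglutide library A243 was the lowest of all 23, and A241 was as high as the middle of the healthy and saline libraries. The log2 fold change was -1.49 ± 0.64 (edgeR adjusted p = 0.404). Ccnb1, the cyclin B that activates Cdk1, was at 7.12, 8.29, 8.58 and 12.5 CPM in healthy control and 10.8, 11.9, 15.97, 13.6 and 5.02 in saline. Its levels were 2.15, 3.95, 9.06, 2.21 and 2.19 CPM with semaglutide, 3.40, 16.04, 12.6 and 6.30 with PYY and 4.83, 1.44, 20.6, 5.09 and 15.6 with the combination. Only A241 of the semaglutide libraries reached the saline range. Ccnb1 had a log2 fold change of -1.55 ± 0.57 (edgeR adjusted p = 0.393). Cyclin A2 (Ccna2, -1.44 ± 0.57), cyclin B2 (Ccnb2, -1.54 ± 0.78) and the mitotic kinases Plk1 (-1.50 ± 0.64) and Aurka (-1.46 ± 0.62) lay close to Ccnb1. Cdc25c was at -2.73 ± 1.90, an estimate from counts of 0 in 3 semaglutide and 3 saline libraries.

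Spindle checkpoint genes, which delay anaphase until every kinetochore is attached, had a median of -1.56, with 4 of 5 at an unadjusted p under 0.05. Mad2l1 was at 12.3, 3.13, 6.16 and 5.45 CPM in healthy control and 4.34, 3.40, 8.75, 7.31 and 6.30 in MetOP saline. It was at 0, 1.51, 3.39, 1.05 and 1.57 CPM with semaglutide, 3.08, 4.88, 3.37 and 2.48 with PYY and 0.908, 1.31, 9.21, 4.92 and 10.1 with the combination. The highest semaglutide library fell just short of the lowest saline library, and A238 had no count, which allows up to 3 counts or 0.117 CPM. The log2 fold change was -1.99 ± 0.71 against saline (edgeR adjusted p = 0.393) and -2.17 ± 0.74 against healthy control (adjusted p = 0.494). Bub1, a kinase of the checkpoint, was at 7.69, 5.25, 11.7 and 4.50 CPM in healthy control and 10.5, 10.7, 23.1, 16.7 and 5.15 in saline. Its levels were 5.79, 4.74, 7.88, 3.33 and 5.27 CPM with semaglutide, 3.55, 12.3, 8.81 and 7.03 with PYY and 4.54, 4.10, 13.7, 7.60 and 15.4 with the combination. Saline library A265 lay within the semaglutide range and the other 4 saline libraries lay above it. Bub1 had a log2 fold change of -1.29 ± 0.42 (edgeR adjusted p = 0.389). Ttk, the checkpoint kinase also called Mps1, was at -2.50 ± 0.83, Bub1b at -1.56 ± 0.65, and Cdc20, the activator of the anaphase-promoting complex that the checkpoint restrains, at -1.08 ± 0.64.

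The 4 spindle genes include the member that differed most from the rest. Tpx2, which nucleates spindle microtubules and activates Aurora A, was at 35.0, 16.2, 22.2 and 19.0 CPM in healthy control and 20.9, 14.1, 49.6, 40.1 and 15.6 in MetOP saline. It was at 42.2, 13.2, 24.7, 4.28 and 24.0 CPM with semaglutide, 8.32, 19.7, 27.2 and 8.64 with PYY and 17.2, 22.4, 31.3, 13.4 and 24.2 with the combination. Semaglutide library A238, which held 29 members among their 5 lowest values, had the highest Tpx2 of its group, and combination library A251 was near the middle of its group. The log2 fold change of semaglutide against saline was -0.37 ± 0.47 (edgeR adjusted p = 0.784), and it was -0.75 without A238 and -0.06 without saline library A229. With the erythroid level as covariate Tpx2 was at 0.04. Nusap1, a microtubule bundling protein, was at 11.97, 3.26, 8.40 and 5.92 CPM in healthy control and 8.73, 3.97, 9.22, 21.6 and 3.09 in saline. Its levels were 1.29, 2.97, 7.39, 0.494 and 1.45 CPM with semaglutide, 3.17, 9.55, 10.2 and 3.21 with PYY and 3.30, 0.974, 13.7, 7.60 and 7.51 with the combination. The groups overlapped, with A241 high among the semaglutide libraries and A265 and A226 low among the saline ones. Nusap1 had a log2 fold change of -1.78 ± 0.69 (edgeR adjusted p = 0.393). The motor Kif11, which pushes spindle poles apart, was at -1.90 ± 0.75, and the depolymerase Kif2c at -1.17 ± 0.82.

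Genes of chromosome structure had a median of -1.60, with 4 of 5 at an unadjusted p under 0.05. Mki67, which coats mitotic chromosomes and encodes the antigen Ki-67, was at 104, 46.1, 60.3 and 48.3 CPM in healthy control and 87.6, 30.7, 150.1, 216.3 and 26.2 in MetOP saline. It was at 6.61, 38.3, 84.6, 14.7 and 14.2 CPM with semaglutide, 19.7, 57.5, 86.6 and 20.1 with PYY and 23.2, 5.20, 105, 42.8 and 183 with the combination. Within saline alone the libraries spread from A265 to A232 over more than the difference between the group means, and within the combination from A251 to A320. Mki67 had a log2 fold change of -1.69 ± 0.78 (edgeR adjusted p = 0.418), and it was -2.47 without semaglutide library A241 and -1.22 without saline library A232. Smc2, a core subunit of condensin, was at 22.5, 13.6, 9.77 and 13.1 CPM in healthy control and 19.2, 10.5, 32.1, 28.9 and 18.0 in saline. Its levels were 8.96, 9.36, 19.9, 6.52 and 5.83 CPM with semaglutide, 9.63, 22.7, 16.9 and 10.2 with PYY and 9.46, 6.45, 24.9, 13.4 and 34.1 with the combination. Apart from A241, every semaglutide library lay below every saline and healthy library. Smc2 had a log2 fold change of -1.10 ± 0.42 (edgeR adjusted p = 0.393). The condensin subunits Ncapg and Ncaph were at -2.05 ± 0.94 and -1.39 ± 0.68, and Top2a, the topoisomerase that untangles sister chromatids, at -1.60 ± 0.66.

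The last group, the chromosomal passenger and cytokinesis genes, had a median of -1.36 and 2 of 7 at an unadjusted p under 0.05. Aurkb, the passenger complex kinase, was at 12.3, 5.33, 6.44 and 4.09 CPM in healthy control and 6.03, 8.15, 12.8, 8.83 and 4.84 in MetOP saline. It was at 0.548, 4.04, 9.78, 4.02 and 1.60 CPM with semaglutide, 1.92, 8.02, 10.1 and 2.95 with PYY and 2.25, 0.504, 12.5, 5.84 and 14.6 with the combination. The groups overlapped through A241, which was above 4 of the 5 saline libraries. The log2 fold change was -1.02 ± 0.69 (edgeR adjusted p = 0.567), and with the erythroid level as covariate the combination was below semaglutide for Aurkb, at -0.18, in place of 0.84. Anln, which organises the contractile ring, was at 5.06, 1.48, 1.05 and 2.37 CPM in healthy control and 2.93, 3.40, 10.3, 7.06 and 3.995 in saline. Its levels were 0, 1.64, 1.79, 0.956 and 0.925 CPM with semaglutide, 1.77, 5.37, 3.72 and 1.13 with PYY and 0.765, 1.14, 8.98, 3.34 and 6.97 with the combination. Every semaglutide library lay below every saline library, while 2 healthy libraries lay within the semaglutide range. Anln had a log2 fold change of -2.38 ± 0.78 (unadjusted p = 0.00538, edgeR adjusted p = 0.389). Survivin (Birc5) was at -1.22 ± 0.90, the central spindle proteins Prc1, Kif20a and Kif23 at -1.47 ± 0.75, -1.87 ± 0.85 and -1.36 ± 0.83, and Ect2, which turns on RhoA at the division plane, at -1.15 ± 0.74.

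MetOP saline against healthy control asks what the model itself did. The members' median log2 fold change was 0.31, with 27 members higher and 7 lower (52.5% of all genes were higher), and none called (background 0%). No member reached an unadjusted p under 0.05, against 6.55% of all genes, and the groups overlapped for all 34 (over all genes 1.2% were fully lower and 1.57% fully higher). The median ran from 0.08 without saline library A232 to 0.57 without healthy library A387, and was 0.18 without saline library A229 and 0.53 without saline library A265. The count of 7 lower members became 16 without A232, 14 without A229 and 3 without A265. Semaglutide against healthy control gave a median of -1.13 with all 34 below 0 (48.2% of all genes) and 10 lower at an unadjusted p under 0.05 (4.49% of all genes), none called (background 0%). The semaglutide libraries lay below all healthy libraries for Ccne1 and Pcna, against 2.37% of all genes. With the erythroid level as covariate this median was 0.00320 and 17 of 34 members were below 0. Both comparisons with semaglutide use the same semaglutide libraries.

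PYY against MetOP saline gave a median of -0.66, with 33 members lower (50.5% of all genes) and Cdc25c higher, and none at an unadjusted p under 0.05 (4.85% of all genes) or called (background 0%). The lowest was Mki67 at -1.15 ± 0.82, and with the erythroid level as covariate the median was 0.08. PYY shares its saline libraries with the semaglutide comparison. Against healthy control the PYY median was -0.19, with 24 of 34 lower (47.2% of all genes), and no member was at an unadjusted p under 0.05 (12.9% of all genes) or called (background 0.0196%). Rrm1 was below all healthy libraries in all 4 PYY libraries (3.96% of all genes), at -0.39 ± 0.33. The direction of this median turned to 0.13 without PYY library A215, where 13 members were lower, and to 0.39 with the erythroid level as covariate. Set directly against each other, semaglutide was below PYY for 33 of 34 members (53.3% of all genes), with a median of -0.83, 3 members lower at an unadjusted p under 0.05 (9.93% of all genes) and none called (background 0.00655%). Ccnb1 had the smallest p of these, at -1.29 ± 0.59 (edgeR adjusted p = 0.267). Tpx2 was the exception at 0.44 ± 0.50, and the sparse Cdc25c was the 1 member below all PYY libraries (2.98% of all genes). The semaglutide libraries had more muscle transcripts, at 10.3% of the non-mitochondrial counts against 5.09% (two-sided exact permutation p = 0.0476, Benjamini-Hochberg adjusted 0.367). With the muscle level as covariate the median of semaglutide against PYY was -0.04 and 18 of 34 members were below 0.

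In the combination the members were on average higher than with semaglutide alone. In that comparison all 34 members were higher (53.7% of all genes), with a median of 1.21 and 12 at an unadjusted p under 0.05 (3.99% of all genes higher), and none was called (background 0%). The member with the smallest p was Anln at 1.996 ± 0.77 (edgeR adjusted p = 0.816), and Tpx2 was at 0.00242 ± 0.46. The median was 0.74 without combination library A320, 1.87 without semaglutide library A241 and 0.22 with the erythroid level as covariate, where 10 members were below 0. Against MetOP saline the combination had a median of -0.29, with 26 of 34 lower (47.5% of all genes), no member at an unadjusted p under 0.05 (3.06% of all genes) and none called (background 0%). That median ran from -0.70 with 33 lower without A320 to -0.03 with 18 lower without combination library A251. It was -0.56 without combination library A253 and -0.11 without A248, and -0.46, -0.09 and -0.07 without saline libraries A265, A232 and A229. Against PYY the median was 0.36, with 31 of 34 higher (52% of all genes), 1 member (Rrm1) at an unadjusted p under 0.05 (2.05% of all genes higher) and none called (background 0%). That median turned to -0.06 without A320, where 20 members were lower in place of 3, and likewise with the erythroid level as covariate. The count of lower members was 14 without A253 and 13 and 9 without PYY libraries A215 and A220. Against healthy control the median was 0.08, with 20 of 34 higher (52.3% of all genes), none at an unadjusted p under 0.05 (5.7% of all genes) and none called (background 0%). It ran from -0.34 with 27 lower without A320 to 0.38 with 5 lower without A251, with 24 lower without A253, 6 without A248 and 8 without healthy library A387. It was -0.50 by limma voom and -0.45 with the muscle level as covariate. These 4 comparisons share the combination libraries.

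The departure of the combination from the sum of the effects of the single drugs on the log2 scale was tested as an interaction. It was above 0 for all 34 members (51.7% of all genes), with a median of 1.78, 12 members at an unadjusted p under 0.05 (2.89% of all genes higher), and none called (background 0%). Rrm1 had the smallest p, at 1.41 ± 0.44 (unadjusted p = 0.00371, edgeR adjusted p = 0.999). Ccne2 was at 2.47 ± 0.81, Mki67 at 2.33 ± 1.12, Mad2l1 at 2.61 ± 1.02 and Anln at 2.88 ± 1.10. The median was 1.424 without A320 and 2.42 without A241, and 0.13 with the erythroid level as covariate, with 14 members below 0. The interaction uses the same saline, semaglutide, PYY and combination libraries as the comparisons above.

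Other genes of the cell cycle were read from 6 lists that share no gene with the 34, of which 88 of 93 genes were tested, and none was called in semaglutide against MetOP saline. All 19 replication licensing genes, which load, start or restrain the MCM helicase, were lower with semaglutide (median -1.34, 10 at an unadjusted p under 0.05). Over all genes 7.24% were lower at that level. Among them Mcm4 was at 6.47 ± 3.01 CPM with semaglutide and 15.98 ± 5.94 with saline (SD, n = 5 each), a log2 fold change of -1.31 ± 0.41, and Mcm2 was at -1.53 ± 0.52. Of 16 kinetochore and centromere genes 15 were lower (median -1.48). Bub3, a checkpoint protein that binds Bub1, was at -0.69 ± 0.21, and the centromere protein Cenpm had no count in 4 semaglutide libraries and 0.0391 CPM in A238, against 0.334 to 7.68 CPM in saline (edgeR adjusted p = 0.0913). All 15 cell cycle transcription regulators were lower by a smaller amount (median -0.45), with the repressor E2f8 at -1.49 ± 0.69 and the pocket protein Rbl1 at -1.39 ± 0.64.

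In the remaining 3 lists the medians were nearer 0 than for licensing and kinetochore genes. Of 12 G1 cyclins, kinases and inhibitors 11 were lower with semaglutide (median -0.79). Ccnd2, a cyclin D, was at 8.60 ± 2.52 CPM with semaglutide against 20.4 ± 3.803 with saline (SD, n = 5 each, log2 fold change -1.25 ± 0.43), and the inhibitor Cdkn1c was at -2.23 ± 0.71. The list of the anaphase-promoting complex, the ligase that Cdc20 activates, held 14 tested genes, of which 9 were lower, with a median of -0.04 that equals that of all genes to 2 decimals. Of these, 10 are subunits, with 6 lower and a median of -0.02, and the other 4 are the coactivator Fzr1, the inhibitor Fbxo5 and the ubiquitin-conjugating enzymes Ube2c and Ube2s. Fbxo5, named after its value was seen, had the lowest log2 fold change of the list, -1.44 ± 0.69. Anapc1 was at -0.73 ± 0.25 and Anapc7 at 0.69 ± 0.27. Of 12 p53 targets, genes induced by DNA damage and arrest, 8 were lower (median -0.28), while Mdm2 was at 0.42 ± 0.18 and Sesn1 at 0.56 ± 0.31. In the interaction the medians were 1.52 for licensing, 1.83 for kinetochore and centromere genes, 0.66 for the transcription regulators, 0.64 for the G1 genes, 0.10 for the list of the anaphase-promoting complex and -0.14 for p53 targets.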

How the data were processed

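Polyadenylated RNA of 23 femur libraries was used, grouped by their titles. Raw counts per Ensembl gene and FPKM were deposited by the authors, 1 column per library. Per the submitters' processing notes, reads were placed on mRatBN7.2 and DESeq2 1.42.0 served in the analysis. Neither the aligner nor the read counter is named (not given in the sources used here). In each library the deposited FPKM were the counts divided by gene length and by 1 constant depth, for 100% of genes within 0.1%. That depth was not the library total. It was 26.4 M against a total of 40.7 M in A253, and 34.8 M against 22.5 M in A215. The labels' protocol covers stranded and unstranded preparation without saying which was used, so genes that overlap another are uncertain.

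Counts were fitted in R 4.3.3 with edgeR 4.0.16 (TMM, filterByExpr by group, glmQLFit with robust dispersion, glmQLFTest), with 1 mean for each of the 5 groups, 18 residual degrees of freedom and 11 comparisons. Benjamini-Hochberg adjustment covered all 15271 genes tested, and only the members and listed genes are printed. The fit was checked on simulated counts, with planted changes larger than any member's fold change for semaglutide against MetOP saline. What it can detect at the sizes seen here was therefore not checked. The level of a list in a library averages the log2 CPM of its tested genes, with a prior count of 2. Exact permutation tests over libraries served for single measures. Promoters came from RefSeq on GRCr8, and no sequence coordinate is shared with the table's build. Alternatives were RLE size factors, no filter, DESeq2, limma 3.58.1 voom, only the groups compared, no mitochondrially encoded genes, a muscle or an erythroid covariate, and leaving out each library.

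Values per library are printed for the member of each role group with the highest mean FPKM and the one with the smallest p in semaglutide against MetOP saline, and for any member called. In each pathway list the 2 genes with the smallest p in that comparison are named. Other members are named with fold changes only. The members and lists were chosen with earlier results of these data known. The 13 marker lists hold 101 genes, of which 94 were tested. Those not described in the results had these medians for semaglutide against MetOP saline: -0.41 for mature neutrophil (5 of 7 lower), -1.03 for megakaryocyte (6 of 6), -1.94 for T cell (4 of 4), -0.09 for endothelial (4 of 5) and -1.02 for fibroblast and stroma genes (5 of 5). A count of 0 allows up to 3 counts, and this limit covers counting error only.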

Additional observations from a re-analysis of the deposited data

Results flagged for a closer look

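Among the 12 members with values per library and the list levels, 3 of 100 groups had 1 library far from the rest, by Dixon's ratio of the gap to the range. Chance gives about 1 in 20. Semaglutide library A241 stood above the other 4 of its group for Ccnb1, the cyclin that activates Cdk1, at 9.06 CPM against 2.15 to 3.95. The same library stood apart for Smc2, the condensin subunit, at 19.9 CPM against 5.83 to 9.36. Healthy control library A387 stood apart for Pcna, the polymerase clamp, at 46.6 CPM against 31.2 to 33.1.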

How the results depend on the processing

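No member was called in any of the 11 comparisons under any of the 31 other settings. No paired analysis was possible because the groups share no replicate numbers. Another scaling moved the median of all genes by less than 0.1 on the log2 scale.

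With the erythroid level as covariate, an alternative chosen after seeing the data, the members' medians were -0.24 for semaglutide against saline, 0.00320 for semaglutide against healthy control and 0.13 for the interaction, and PYY against healthy control had 60 genes called in place of 3. In the same setting Tpx2 was at 0.0408 for semaglutide against saline and -0.20 for the combination against semaglutide, and Aurkb at -0.18 for the combination against semaglutide and -0.0912 for the interaction, each turned in direction. Tpx2 for the combination against semaglutide (0.00242) was also -0.00468 without mitochondrially encoded genes, -0.13 and -0.26 without semaglutide libraries A240 and A242, and -0.17 and -0.0397 without combination libraries A253 and A320, in a range of -0.26 to 0.39 over the refits without 1 library.

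Over all genes tested, edgeR called 1 gene in semaglutide against PYY, 3 in PYY against healthy control and none in the other 9 comparisons. DESeq2 called 47 for MetOP saline against healthy control, 89 for semaglutide, 3 for PYY and 2 for the combination against saline. It called 12 for the combination against semaglutide, 10 for the combination against PYY, 487 for semaglutide against PYY and 3 for the interaction, and 80, 399 and 38 for semaglutide, PYY and the combination against healthy control. PYY against healthy control had 14 with RLE factors, 12 without mitochondrially encoded genes, 1 by limma voom and 0 with only the groups compared. The combination against PYY had 1 by limma voom.

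Leaving out 1 library at a time gave 1 to 1021 genes called for semaglutide against PYY and 2 to 59 for PYY against healthy control, both highest without PYY library A220. It gave 0 to 1 for PYY against saline, 0 to 3 for the combination against semaglutide, 0 to 2 for the combination against PYY, and 0 to 1 for semaglutide and for the combination against healthy control. In the same refits the members' medians ran from -2.11 to -1.23 for semaglutide against saline, -0.91 to -0.35 for PYY against saline, -0.70 to -0.03 for the combination against saline, and 0.08 to 0.57 for MetOP saline against healthy control. They ran from 0.74 to 1.87 for the combination against semaglutide, -0.06 to 0.59 for the combination against PYY, -1.43 to -0.55 for semaglutide against PYY and 1.424 to 2.42 for the interaction. Against healthy control they ran from -1.75 to -0.87 for semaglutide, -0.42 to 0.13 for PYY and -0.34 to 0.38 for the combination. The cause of these differences was not tested. The median gene-wise biological coefficient of variation was 52.4%. No setting varied depth, so what depth limits was not tested beyond the counts of 0 named above.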
